A study of Rattus norvegicus with 4 samples.

Results

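The genes described here encode the fatty acid elongases and desaturases, the enzymes that lengthen fatty acids and put double bonds into them. They were chosen by name, 6 elongases (Elovl1 to Elovl6) and 4 desaturases (Scd, Scd2, Fads1 and Fads2), and 8 of the 10 had an array row that the platform's annotation gives to that gene alone, out of 14506 genes with such a row in the whole series. Those 8, each with 1 row, are Elovl2, Elovl3, Elovl5, Elovl6, Scd, Scd2, Fads1 and Fads2. Elovl1 and Elovl4 were not analysed here. The samples were retroperitoneal white adipose tissue, a visceral fat pad, from male WNIN/Ob rats aged 4 months. The strain has a lean and an obese phenotype, with 2 rats of each, all untreated and fed a stock diet, and each rat gave RNA for 1 Affymetrix Rat Gene ST array. The genotype of the lean rats at the obesity locus is not given in the sources used here.

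Fatty acid synthase makes chiefly palmitate, a saturated fatty acid. Elongases carry out the first, rate-setting step of a cycle in the endoplasmic reticulum that adds a further unit of carbon from malonyl-CoA, and desaturases insert double bonds with electrons from cytochrome b5. Elovl6 turns palmitate into stearate and Scd turns stearate into oleate, the main monounsaturated fatty acid of fat stores, while Fads2, Elovl5, Fads1 and Elovl2 act in turn on essential fatty acids from the diet to give arachidonate and longer polyunsaturated products. In adipose tissue the saturated and monounsaturated branch is known as part of the lipogenic programme under insulin, SREBP-1c and the liver X receptors.

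Levels are log2 intensities, differences are obese minus lean on that scale, and errors of differences are standard errors from limma with n = 2 per group. Array levels were not compared between genes, because probes differ in brightness, except to mark dim genes against olfactory receptor genes. As a check of the labelled tissue, 12 adipocyte markers had a summed intensity of 20701 to 30089 on the 4 arrays, with the lower values in the lean rats, and Adipoq among them lay between 11.86 and 12.29. Lean rat 1 stood apart in skeletal muscle genes. Its summed intensity over 16 muscle markers was 41408, against 648 to 867 on the other arrays, so values without that rat are given for some genes. Genes without such a value could shift too, such as Hacd4 from 1.42 to 1.77. The median absolute gap, without regard to sign, between the lean rats was 0.36 over all genes and that between the obese rats 0.21. The smallest two-sided p that an exact permutation of 2 rats against 2 allows for a gene is 0.333, and the precision is limited by the number of arrays.

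Obese fat had more transcript of Elovl6 and Scd, the pair of enzymes that leads from palmitate to oleate, and neither gene overlapped between the groups. Elovl6 rose 13.1-fold, a size that is uncertain because its level in lean rat 2 lay within the range of genes with little signal in fat, and Scd rose 4.55-fold. Scd2, Elovl5 and Fads1 also lay above both lean rats in both obese rats, at 1.94-fold to 2.34-fold, but did not pass the adjusted threshold. Fads2 and Elovl2 lay below both lean rats, Elovl2 not so with quantile normalization. Elovl3 overlapped. By limma with Benjamini-Hochberg adjustment over all 14506 genes, 2 of the 8 were called higher at an adjusted p under 0.05, where 0.772% of all genes were called higher. None of the 8 was called lower by limma, where 0.0689% of all genes were, and none had an unadjusted p under 0.05 in that direction, where 5.33% of all genes did. At an unadjusted p under 0.05, 5 of the 8 were higher, against 9.93% of all genes. Both obese rats exceeded both lean rats in 5 of the 8 and in 26.4% of all genes, and lay below both in 2 of the 8 and in 21.3% of all genes. The median difference of the 8 was 1.07, against 0.00047 over all genes. The genes were chosen with earlier results of these data known, so these counts and the median are descriptions and not independent support.

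**Figure D1:**
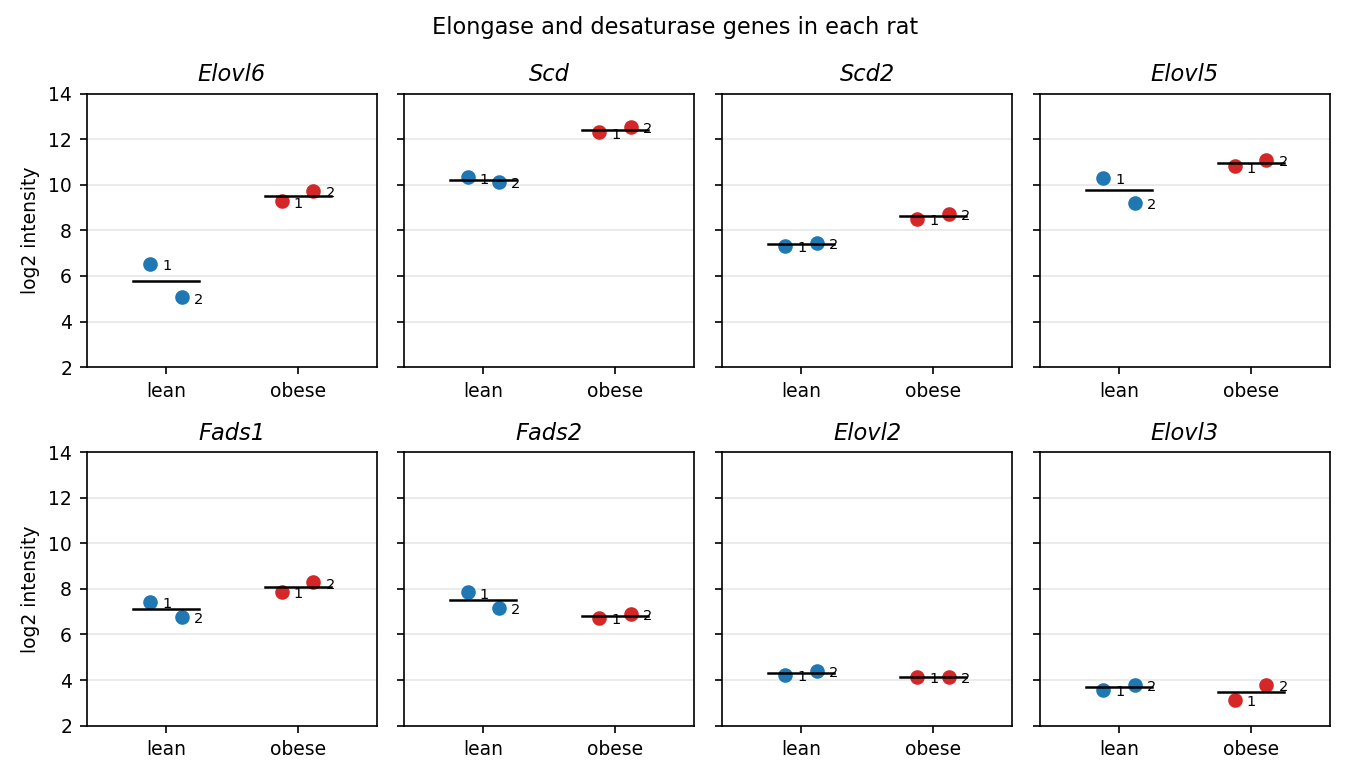
Log2 intensity of each gene in each rat, with the rat's number beside its point, lean rats in blue, obese rats in red and the mean of each group as a black line. Elovl6 and Scd show the widest separation, Fads2 is the reverse of Fads1, and Elovl2 and Elovl3 lie low on all 4 arrays.

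Elovl6 was at 6.52 and 5.06 in lean rats 1 and 2 and at 9.27 and 9.73 in obese rats 1 and 2, or 91.9, 33.3, 617 and 851 on the intensity scale. Both obese rats were far above both lean rats, and the lean rats differed from each other by 1.46, the widest gap among the 8 genes. The difference was 3.71 ± 0.47 (95% interval 2.62 to 4.80, limma adjusted p = 0.023), which is 13.1-fold with an interval from 6.14 to 27.9. Only 3 of the 14506 genes had a larger positive difference. With each rat left out in turn the difference ran from 2.98 without lean rat 2 to 4.44 without lean rat 1. Such a fit leaves 1 rat in a group and assumes that it varies like the other group, whose 2 rats and the trend over all genes then give the spread, so its p is weak support here and for the genes below. Elovl6 was called in each of the other 9 alternatives tried, with adjusted p up to 0.048.

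Scd, the stearoyl-CoA desaturase gene that is the main form in rat liver and fat, was at 10.32 and 10.12 in the lean rats and at 12.29 and 12.52 in the obese rats. Its intensity was thus 1281 and 1114 in lean fat and 5017 and 5885 in obese fat, with little spread inside either group. The difference was 2.18 ± 0.31 (95% interval 1.48 to 2.89, limma adjusted p = 0.027), which is 4.55-fold with an interval from 2.78 to 7.43. It lay between 2.07 and 2.30 with any rat left out and was called in the 9 alternatives that keep all 4 rats. Scd2, a second stearoyl-CoA desaturase, was at 7.33 and 7.44 in the lean rats and at 8.50 and 8.73 in the obese rats. The groups did not overlap and the rats of a group lay close together, but the difference of 1.23 ± 0.29 did not pass (limma adjusted p = 0.114). Its interval, not adjusted for the number of genes, ran from 0.56 to 1.89, or from 1.48-fold to 3.72-fold, and no alternative called it (adjusted p of 0.060 to 0.473). The desaturase genes are close relatives, and how far their array rows share signal was not tested.

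Scd and Scd2 lie near each other on chromosome 1, with Scd4 between them in RefSeq's annotation of GRCr8. The windows from 250 bases before to 50 bases after their start sites are shown because both genes were higher in both obese rats. Windows are from RefSeq, 5′ to 3′ on the gene's strand, and capitals mark matches to 4 motifs searched on both strands. These were CACCCCAC as the core of a sterol regulatory element, CCAAT, the E-box CACGTG and the GC box GGGCGG.
Scd, chr1:253231682-253231981, minus strand: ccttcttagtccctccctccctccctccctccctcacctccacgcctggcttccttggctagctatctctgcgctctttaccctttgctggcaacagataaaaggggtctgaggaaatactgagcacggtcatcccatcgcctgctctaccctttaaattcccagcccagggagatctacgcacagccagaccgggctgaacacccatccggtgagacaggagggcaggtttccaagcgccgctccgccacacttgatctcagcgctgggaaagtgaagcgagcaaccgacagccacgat
Scd2, chr1:253118127-253118426, plus strand: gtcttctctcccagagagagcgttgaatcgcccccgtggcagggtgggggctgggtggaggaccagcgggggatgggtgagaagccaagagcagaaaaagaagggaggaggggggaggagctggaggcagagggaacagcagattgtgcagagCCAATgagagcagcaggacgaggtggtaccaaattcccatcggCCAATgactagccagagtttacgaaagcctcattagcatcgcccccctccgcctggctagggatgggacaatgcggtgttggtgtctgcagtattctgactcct
The Scd window held no match to any of the 4. The Scd2 window held CCAAT on the gene's strand, starting 97 and 54 bases before the start site, and none of the others. Among 33469 windows of this length in the table, 2.70% held CACCCCAC, 37.5% CCAAT, 6.42% CACGTG and 33.1% GGGCGG. Of the 10 genes 9 had a window, and no entry matched Elovl6. None of the 10 windows of those 9 genes held CACCCCAC, and CCAAT also occurred in those of Elovl3, Elovl4, Elovl5 and Fads1. A match is a description of letters, and its absence says only that they are not in this window.

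The estimated differences of the polyunsaturated branch were above 0 for Elovl5 and Fads1 and below 0 for Fads2 and Elovl2. Limma called none of these genes with all rats kept, so movement in opposite directions was not established. Elovl5, which elongates polyunsaturated fatty acids, was at 10.30 and 9.21 in lean rats 1 and 2 and at 10.80 and 11.08 in obese rats 1 and 2. The obese rats were above both lean rats, but lean rat 1 was closer to them than to lean rat 2. The difference of 1.19 ± 0.41 (interval 0.24 to 2.13) did not pass (limma adjusted p = 0.25). Without lean rat 1, the array with the muscle signal, it was 1.73 (adjusted p = 0.041, with the spread from the obese rats, which lay closer together than the lean rats), and without lean rat 2 it was 0.65 (adjusted p = 0.381).

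Fads1 encodes the desaturase of the last step to arachidonate. It was at 7.43 and 6.78 in the lean rats and at 7.85 and 8.28 in the obese rats, higher in both obese rats than in either lean rat. Its difference was 0.96 ± 0.34 (interval 0.18 to 1.74, limma adjusted p = 0.256). Fads2 encodes the desaturase of the first step, and its values went the other way, with 7.84 and 7.18 in the lean rats and 6.73 and 6.89 in the obese rats. Both obese rats were below both lean rats, at a difference of -0.70 ± 0.32 (interval -1.43 to 0.03, limma adjusted p = 0.342). Neither gene was called in any of the 13 alternatives. Fads2 ran from -1.03 without lean rat 2 to -0.37 without lean rat 1, and Fads1 from 0.64 to 1.28 without the same rats.

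Fads1 and Fads2 are neighbours on opposite strands of chromosome 1, with no protein-coding gene between them in GRCr8. Their windows are given because the pair lay in opposite directions.
Fads1, chr1:216252442-216252741, plus strand: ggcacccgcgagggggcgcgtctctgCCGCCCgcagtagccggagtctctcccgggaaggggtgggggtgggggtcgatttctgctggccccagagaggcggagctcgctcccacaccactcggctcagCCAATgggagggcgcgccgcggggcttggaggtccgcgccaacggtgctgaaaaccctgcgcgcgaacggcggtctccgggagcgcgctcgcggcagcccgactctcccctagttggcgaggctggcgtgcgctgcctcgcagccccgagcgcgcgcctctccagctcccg
Fads2, chr1:216171984-216172283, minus strand: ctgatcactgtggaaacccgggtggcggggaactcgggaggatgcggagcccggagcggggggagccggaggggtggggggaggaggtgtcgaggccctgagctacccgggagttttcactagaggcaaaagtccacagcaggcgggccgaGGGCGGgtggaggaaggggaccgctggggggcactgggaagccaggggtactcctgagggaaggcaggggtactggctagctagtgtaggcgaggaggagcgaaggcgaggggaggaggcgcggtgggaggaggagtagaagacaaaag
The Fads1 window held GGGCGG in reverse, starting 224 bases before the start site, and CCAAT, starting 121 bases before it. The Fads2 window held GGGCGG starting 99 bases before the start site and no CCAAT.

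**Figure D2:**
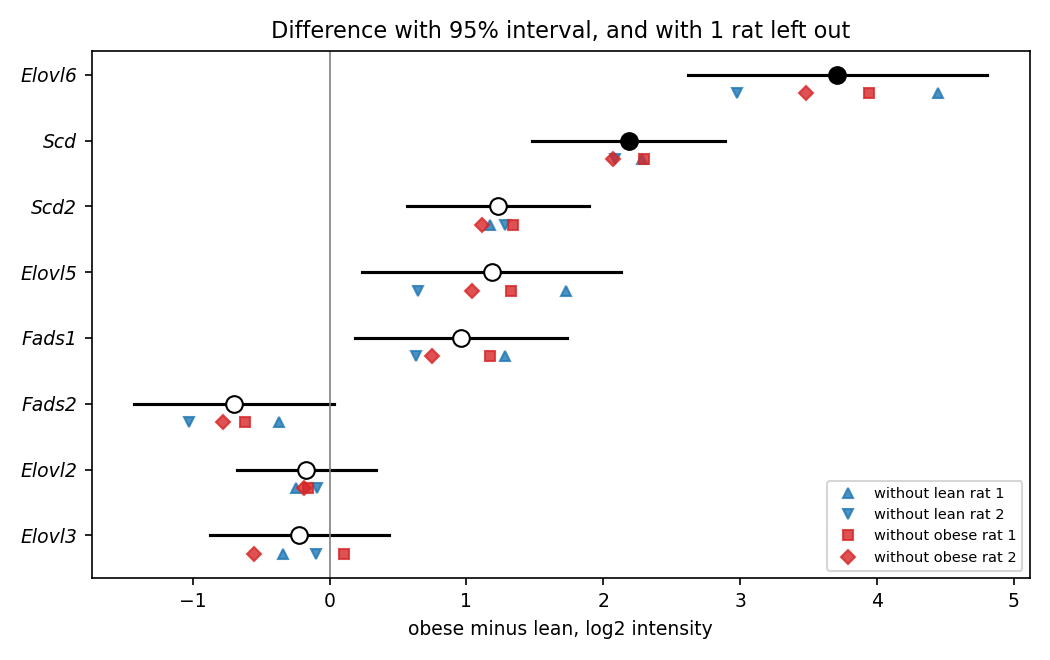
Obese minus lean difference in log2 intensity for each gene, with limma's 95% interval as a line and a filled circle where the adjusted p was under 0.05; the small symbols are the differences with 1 rat left out. Elovl6 and Scd stay above 2 with any rat left out, Elovl6 moves most when a lean rat is left out, and Fads2 lies on the other side of 0 from Fads1.

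The ratio of a pair of genes within a rat was followed for 4 pairs, chosen with the values known. On the log2 scale Fads1 over Fads2 was -0.41 and -0.40 in the lean rats and 1.12 and 1.39 in the obese rats. The lean rats thus had nearly the same ratio although each gene differed between them by about 0.65, and the ratio was 1.66 higher in obese fat, or 3.15-fold. Only the shift of such a ratio between groups can be read, since its own level depends on the probes. With a rat left out the shift was 1.52 to 1.79. Elovl6 over Elovl5 shifted by 2.52 (lean -3.77 and -4.16, obese -1.53 and -1.35), so the difference was larger for Elovl6 than for Elovl5. Elovl6 over Scd shifted by 1.53, but its lean values of -3.80 and -5.06 were 1.26 apart, and the shift was 0.90 without lean rat 2 and 2.16 without lean rat 1. Scd over Scd2 shifted by 0.96, with a lean mean of 2.84 ± 0.22 and an obese mean of 3.80 ± 0.00040 (SD, n = 2). The groups did not overlap for any of the 4 pairs, and each had an exact two-sided permutation p of 0.333, the smallest this design allows and the same after adjustment over the 4.

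**Figure D3:**
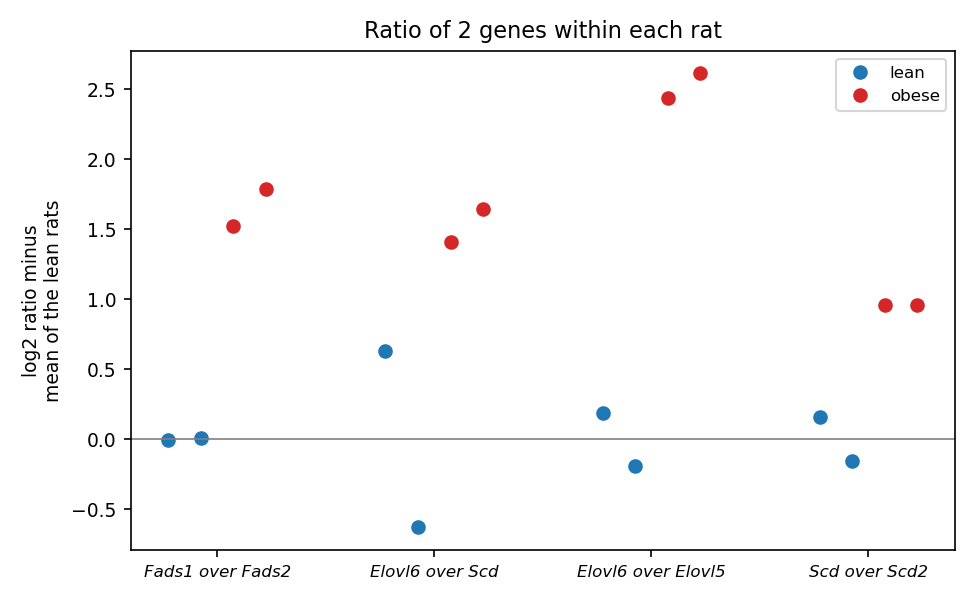
Log2 ratio of a pair of genes within each rat, minus the mean of the lean rats for that pair, with lean rats in blue and obese rats in red. The lean points for Fads1 over Fads2 lie together at 0 and the obese points at about 1.5 and 1.8, while the lean points for Elovl6 over Scd are spread by 1.26.

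Elovl2, an elongase of the longest polyunsaturated fatty acids known best from liver, was at 4.23 and 4.39 in the lean rats and at 4.13 and 4.16 in the obese rats. Elovl3, an elongase known from brown fat, skin glands and liver, was at 3.56 and 3.80 in the lean rats and at 3.13 and 3.78 in the obese rats. Both were dim on every array. The 95th percentile of 53 olfactory receptor genes, which serve here as genes with little signal in fat, was 5.26 to 5.74 on the 4 arrays, and Elovl2 and Elovl3 lay below it on each. The other 6 genes lay above that percentile on every array except Elovl6 in lean rat 2 (5.06 against 5.74), so the size of the Elovl6 difference from that rat is uncertain. Elovl2 differed by -0.17 ± 0.22 (limma adjusted p = 0.757) and Elovl3 by -0.22 ± 0.28 (adjusted p = 0.755), and both values were above 0 with quantile normalization (0.041 and 0.011). The brown fat marker Ucp1 was at 6.89 and 4.97 in the lean rats and at 5.90 and 4.17 in the obese rats, so its groups overlapped.

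Other genes of the pathway were counted in 4 lists of 45 genes, 38 of them measured. These lists too were chosen with earlier results of these data known. The elongases begin a cycle that a ketoacyl-CoA reductase, a dehydratase and an enoyl-CoA reductase complete. Of 8 such partners, including the elongase Elovl7, 4 were measured and limma called none, with 2 higher at an unadjusted p under 0.05 (9.93% of all genes) and a median of 0.55. Hsd17b12, the reductase, was at 8.34 and 8.53 in the lean rats and at 9.32 and 9.40 in the obese rats, a difference of 0.93 ± 0.30 (adjusted p = 0.220). Hacd4, of the dehydratase family, was at 1.42 ± 0.46 (adjusted p = 0.224), with the obese rats at 8.09 and 6.74. The obese rats lay 1.35 apart, and the difference was 2.09 without obese rat 2 (adjusted p = 0.0024, with 1 obese rat) and 0.74 without obese rat 1.

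Of 11 relatives of the desaturases and genes of their electron supply, 10 were measured and limma called none, with 3 higher and 1 lower at an unadjusted p under 0.05 (9.93% and 5.33% of all genes) and a median of 0.38. The smallest p belonged to the dihydroceramide desaturases, which put the double bond into the ceramide backbone, and they lay in opposite directions. Degs1 was at 9.62 and 9.47 in the lean rats and at 10.47 and 10.72 in the obese rats, a difference of 1.05 ± 0.31 (adjusted p = 0.189). Degs2 was at 6.45 and 5.08 in the lean rats and at 4.32 and 4.41 in the obese rats, a difference of -1.40 ± 0.41 (adjusted p = 0.189). It lay below the 95th percentile of the olfactory receptor genes except in lean rat 1, the array with the muscle signal. The direction and size of the Degs2 difference are therefore uncertain. The lean rats lay 1.37 apart, and the difference was -2.08 without lean rat 2 (adjusted p = 0.0043, with 1 lean rat) and -0.72 without lean rat 1.

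Of the 4 pathway lists, only the supply of palmitate, the substrate of Elovl6, had calls by limma in the comparison as described above. Of 9 genes 8 were measured, 2 were called higher and none lower, and the median was 1.66. By limma 6 of the 8 were higher and none lower at an unadjusted p under 0.05. Over all genes, 0.772% were called higher, and 9.93% were higher and 5.33% lower at that unadjusted p. The list was chosen with earlier results known, so the contrast with all genes is a description. Fasn, the fatty acid synthase, was at 9.65 and 9.10 in the lean rats and at 11.27 and 11.73 in the obese rats (2.12 ± 0.35, adjusted p = 0.042). Acly, which makes cytosolic acetyl-CoA from citrate, was at 8.27 and 7.66 in the lean rats and at 9.90 and 10.44 in the obese rats (2.21 ± 0.36, adjusted p = 0.041). Leaving out lean rat 2 took Fasn to 1.85 and over the threshold (adjusted p = 0.050), and both calls were lost with quantile normalization, median centring or all rows tested (adjusted p of 0.060 to 0.073). The number called higher changed with each rat left out, and leaving out lean rat 2 also gave a call in the lower direction. Each such fit leaves 1 rat in a group.

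Of 17 transcriptional regulators and their partners 16 were measured, and Srebf1 was not analysed here. Limma called none of the 16, with 6 higher and none lower at an unadjusted p under 0.05 (9.93% and 5.33% of all genes) and a median of 0.39. Insig1, a sterol-sensing retention protein of SREBP and itself a target of it, was at 10.80 and 10.41 in the lean rats and at 11.85 and 11.91 in the obese rats, a difference of 1.27 ± 0.31 (adjusted p = 0.128). Without lean rat 1 it was 1.47 (adjusted p = 0.049, with 1 lean rat). Mlx, the partner of the carbohydrate response factor, was at 0.97 ± 0.28 (adjusted p = 0.187).

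**Figure D4:**
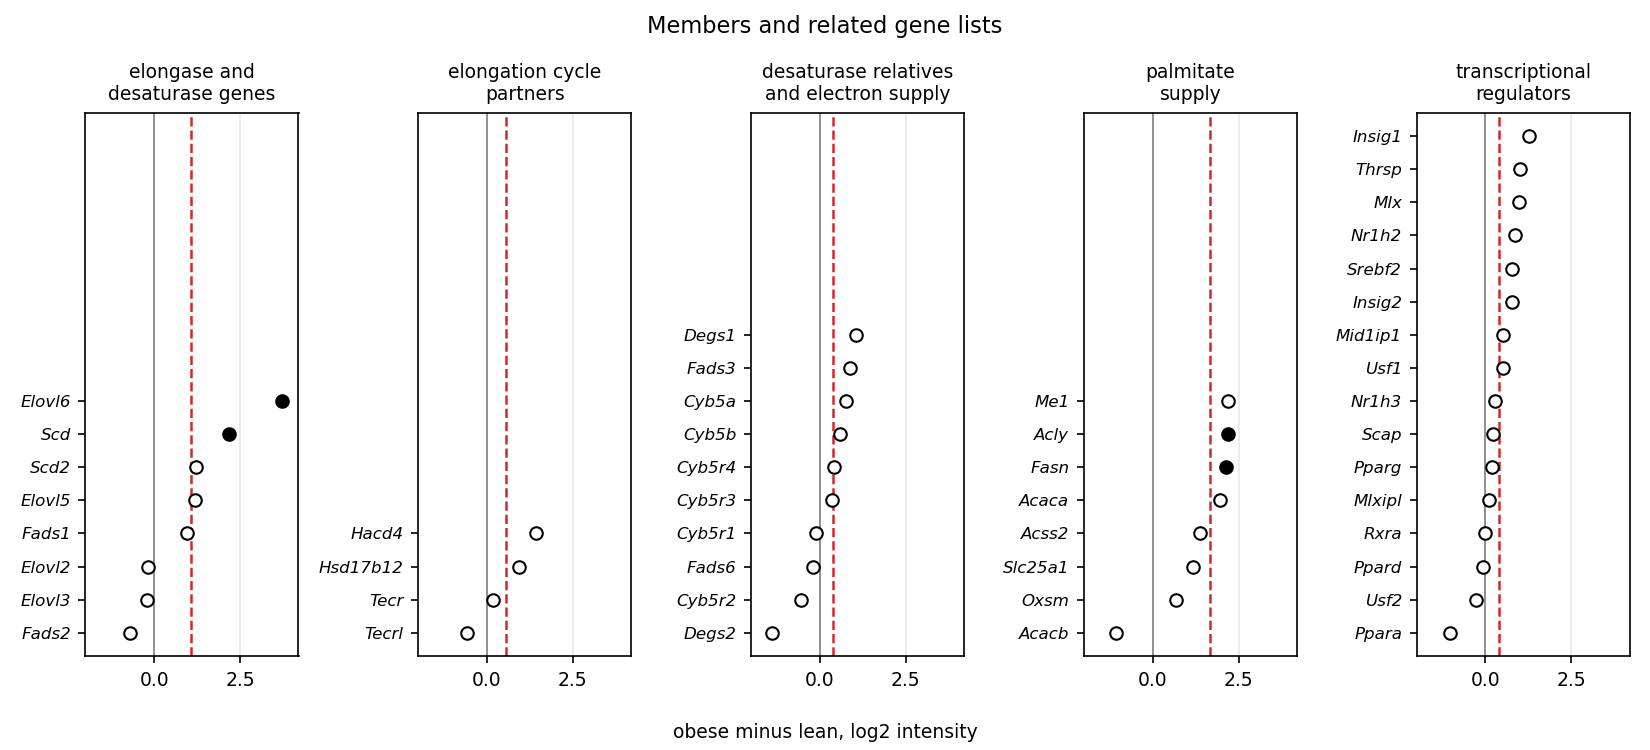
Obese minus lean difference in log2 intensity for each measured gene of the 5 groups named above the panels; filled circles had an adjusted p under 0.05 and the dashed red line is the group's median. Calls are limited to Elovl6 and Scd among the elongase and desaturase genes and to Acly and Fasn among the palmitate supply genes.

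The marker genes of cell types moved as follows on the same arrays, and their part in the values above was not tested. In bulk tissue, fewer cells of a type and less RNA per cell cannot be told apart. Summed over 12 adipocyte markers, the intensity was 20701 and 21406 in the lean rats and 24117 and 30089 in the obese rats. Limma called none of them, and 1 was higher at an unadjusted p under 0.05, where 9.93% of all genes were. Of 15 macrophage markers 7 were called higher, against 0.772% of all genes, but the list was chosen with earlier results of these data known. Their summed intensity was 3857 and 3567 in the lean rats and 16875 and 11433 in the obese rats. Both obese rats exceeded both lean rats in 12 of the 15, against 26.4% of all genes, and Cd14, C1qa and Cd163 overlapped. Cd68, which was not called (limma adjusted p = 0.075), was at 7.77 and 8.88 in the lean rats and at 10.40 and 10.33 in the obese rats. The sum of these markers was higher in obese rat 1 than in obese rat 2, though not each marker (Spp1 was at 9.18 and 10.47). All 8 elongase and desaturase genes were higher in obese rat 2, including Fads2, Elovl2 and Elovl3, which did not rise in obese fat. Obese rat 1 minus obese rat 2 was only -0.029 in Elovl2, and its median over all genes was -0.034. The share of all genes higher in obese rat 2 was not counted, so the 8 cannot be set against it. How the order of the obese rats in these genes relates to the macrophage markers was not tested. None of 16 muscle, 9 endothelial, 7 mesothelial, 5 brown adipocyte and 4 blood cell markers was called by limma, with 3, 3, 3, 0 and 1 lower and 0, 1, 0, 0 and 0 higher at an unadjusted p under 0.05. Over all genes, limma called 0.772% higher and 0.0689% lower, and 9.93% were higher and 5.33% lower at that unadjusted p. Summed mesothelial markers were at 1043 in lean rat 1 and 219 to 309 in the other rats, and brown adipocyte markers at 286 in lean rat 1 and 95.1 to 141 in the others. Endothelial markers were at 2140 and 2042 in lean fat and 1642 and 1684 in obese fat, and blood cell markers ran from 1059 in obese rat 2 to 5388 in lean rat 2. No marker is listed at 0. Acta1 of skeletal muscle was at 12.88 in lean rat 1 and between 6.56 and 7.67 in the other rats.

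The 3 genes whose profile over the 4 arrays lay nearest to that of Elovl6, by root mean square distance after centring each gene on its own mean, were Lipa (0.49), Top2a (0.54) and Clec5a (0.58). They encode lysosomal acid lipase, a topoisomerase and a myeloid receptor. Nearest to Scd were Ces2c (0.071), Pbk (0.11) and Gpr65 (0.13), which encode a carboxylesterase, a mitotic kinase and a proton-sensing receptor. The distances were smaller for Scd, but the profiles were not scaled, so a distance also depends on the size of a gene's differences. The distances of Scd and Elovl6 therefore cannot be compared as closeness of pattern. In lean rat 2 all of these near genes except Lipa lay below the 95th percentile of the olfactory receptor genes. Clec5a, Pbk and Gpr65 did so in lean rat 1 too, so their lean values may hold little signal. These distances describe 4 arrays and carry no test.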

How the data were processed

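Intensities of retroperitoneal fat from 4 rats were measured on Affymetrix Rat Gene ST arrays from 100 ng of RNA each, per the labels' protocols. The deposited intensity values are on a linear scale, as read from the values, and the submitters' processing notes name RMA, which corrects background and equalises probe distributions. The sources used here give neither the software nor the array's genome build. Intensities were taken to log2 with no pseudocount. Of 29214 rows, 15310 had exactly 1 symbol in the platform annotation, and the row with the highest mean was kept for each of 14506 genes.

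Sample titles gave the groups, and each title names a different rat. The phenotypes were compared by limma 3.58.1 under R 4.3.3 (lmFit, eBayes with trend, no covariates), with Benjamini-Hochberg adjustment over all genes, a threshold of 0.05 and 95% intervals from the moderated variance. The fit was checked on simulated arrays. The genes, lists and naming rule were chosen with earlier results of these data known. Named beside the 8 genes are the called genes of each pathway list (the 2 of smallest p in a list without calls) and the 3 nearest profiles. The other genes given were chosen as markers. Alternatives covered the rat number as a block, scaling, variance models, array weights, dim genes, row choice and each rat left out. Ratios of pairs and their alternatives were added after the values were seen. Promoter windows came from RefSeq's GRCr8 table. Figures were drawn with matplotlib 3.10.9.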

Additional observations from a re-analysis of the deposited data

How the results depend on the processing

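Elovl6 and Scd were called in all 13 alternatives, 4 of which leave a group with 1 rat and are weak support. Elovl5 was called once, without lean rat 1, and the other 5 elongase and desaturase genes in none. Over these genes and the 8 named genes of the related lists, 191 values kept their direction and side of the threshold, 7 lost the call, 5 gained it and 3 changed sign. The sign changes were in dim genes: quantile normalization gave 0.041 for Elovl2 and 0.011 for Elovl3, and leaving out a rat took Elovl3 to between -0.55 and 0.11. The filter on the lowest 25% of genes removed Elovl2 and Elovl3. The count of palmitate supply genes called higher was 0 with quantile normalization, with median centring and with all rows tested. With a rat left out it ran from 1 to 5, and the count called lower from 0 to 1. The same range of 0 to 1 held for elongation cycle partners called higher, for desaturase relatives called lower, and for regulators called higher and called lower. Of all genes, 112 were called higher and 10 lower; the counts with a rat left out were 148 to 664 higher and 120 to 417 lower. They were 68 higher with quantile normalization, 222 higher and 40 lower with a robust variance model, and 28 lower with array weights. The cause of these changes was not tested. With all rows tested 96 were lower, but these are counted over all 29214 rows, with or without a symbol, and not over genes. The median difference over all genes was 0.049 with quantile normalization and 0.099 with median centring, and 5 of the 8 genes still lay above both lean rats in each. The rat numbers are not stated to pair rats, and the gaps of same-numbered rats had a correlation of 0.020 across genes. With the rat number as a replicate block, 4 palmitate supply genes and 1 elongation cycle partner (Hacd4, 1.42, adjusted p = 0.050) were called higher, and 254 genes were called higher and 73 lower in all. The number of arrays limits all of these values.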

Other observations

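The lean rats differed from each other more than the obese rats did in several of these genes. Lean rat 1 exceeded lean rat 2 by 1.46 in Elovl6, 1.08 in Elovl5, 0.66 in Fads2, 0.65 in Fads1 and 0.20 in Scd, and the gap was -0.11 in Scd2, -0.15 in Elovl2 and -0.24 in Elovl3. The palmitate supply genes had a median gap of 1.01 in the same direction, against -0.10 over all genes. Obese rat 2 exceeded obese rat 1 in all 8 genes, where obese rat 1 minus obese rat 2 ran from -0.65 in Elovl3 to -0.029 in Elovl2. The median of that gap was -0.49 for palmitate supply and -0.034 over all genes, and the share of all genes higher in obese rat 2 was not counted. Acacb, the acetyl-CoA carboxylase of the mitochondrial surface, lay opposite to the other palmitate supply genes at -1.06 ± 0.50. It was at 6.99 in lean rat 1, the array with the muscle signal, and between 4.90 and 5.24 in the other rats. In those other rats it lay below the 95th percentile of the olfactory receptor genes. How the muscle signal relates to the Acacb value was not tested. Acaca, the cytosolic carboxylase, was at 1.96 ± 0.47. Both were chosen after their values were seen, and limma called neither (adjusted p = 0.359 and 0.123).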
